A study of Mus musculus with 4 samples.

Results

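The lysosomal cathepsins described here are 9 protease genes, Ctsa, Ctsb, Ctsc, Ctsd, Ctsh, Ctsk, Ctsl, Ctss and Ctsz, out of 32285 genes counted in single macrophages of mouse visceral fat. They were taken by name, though with earlier results of these data known, and all 9 were found in each of the 4 libraries. The study asked how macrophages of perigonadal white fat differ between control mice and mice with a conditional knockout (CKO) of BLIMP1, the transcriptional repressor encoded by Prdm1, under a normal diet (ND) and a high-fat diet (HFD). Cells were sorted as live, CD45+, lineage-negative, CD11b+ and CD64+, and profiled with the 10x Genomics 3′ method, in which each captured transcript end carries a unique molecular identifier (UMI). The 4 groups were WT HFD, CKO HFD, WT ND and CKO ND, with 1 library each and no replicate. The sources used here do not state how many animals a library came from, what age, strain or sex they were, which promoter drove the knockout, or which exons it removed.

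With 1 library a group, no test between groups was possible. Every interval in the text is a 95% interval for counting error (exact Poisson for levels, exact conditional binomial for ratios, Clopper-Pearson for shares of cells), and a group cannot be told apart from the preparation of its library. The files held 5054, 8749, 3737 and 4327 cells in that order of groups, of which 4650, 8731, 3705 and 4302 passed the filters on UMIs, genes and mitochondrial share. Median depth was 14492 UMIs per cell in WT HFD and 3923 to 4092 in the others, so each cell with at least 2000 UMIs was thinned at random to 2000. This left 4583, 7655, 3030 and 3482 cells, and 1.44%, 12.3%, 18.2% and 19.1% of the kept cells were too shallow to enter. Levels below are counts per 1000000 UMIs (CPM) over these thinned cells, and the same order of libraries is used where 4 values are given. Pairs of libraries shared 2 to 9 barcodes of kept cells, at most 0.243% of the smaller library. Prdm1 itself stood at 22.3, 22.6, 30.4 and 35.8 CPM and so was not lower in the CKO libraries. Tags from the 3′ end that lie outside a deleted part cannot show the deletion, so these counts do not check the genotype labels, and CKO below means the library labelled CKO. Cells with 2 or more fibroblast markers were 48, 60, 2 and 5, and those with 2 or more dendritic cell markers were 41, 45, 157 and 186.

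Cathepsins are proteases of the lysosome, made as inactive precursors, carried there mostly by mannose 6-phosphate receptors, and activated at acid pH. They break down proteins taken up by phagocytosis and autophagy, trim antigens and invariant chain for MHC class II presentation, and some are secreted and cut matrix. In obese fat, macrophages that surround dying adipocytes take on lipid, become rich in lysosomes and express Trem2, a lipid-sensing receptor. Cathepsin D is an aspartyl protease and cathepsin A a serine carboxypeptidase, while the others are cysteine proteases. Among these, cathepsins L, S and K are endopeptidases, cathepsin B also trims dipeptides from the carboxyl end, cathepsin C removes dipeptides from the amino end and activates granule serine proteases, cathepsin H is an aminopeptidase, and cathepsin Z is a carboxypeptidase.

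In GRCm38, Ctsa (ENSMUSG00000017760) lies on chromosome 2 at 164832873-164841032 on the plus strand and Ctsz (ENSMUSG00000016256) on the same chromosome at 174427493-174439039 on the minus strand. Ctsc (ENSMUSG00000030560, 88278085-88310888, plus strand) and Ctsd (ENSMUSG00000007891, 142375911-142388038, minus strand) are both on chromosome 7. Ctsb (ENSMUSG00000021939) is at 63122462-63145923 on the plus strand of chromosome 14, Ctsl (ENSMUSG00000021477) at 64359337-64370890 on the minus strand of chromosome 13, and Ctsh (ENSMUSG00000032359) at 90054152-90076089 on the plus strand of chromosome 9. Ctsk (ENSMUSG00000028111, 95499256-95509362) and Ctss (ENSMUSG00000038642, 95526786-95556403) are neighbours on the plus strand of chromosome 3, 17.4 kb apart. Ctsa, Ctsb, Ctsl and Ctsz overlap counted genes on the opposite strand (Neurl2 and Pltp, Fdft1, Gm47123, and Nelfcd in that order). The sources used here do not state whether strand was used in counting, so reads of these pairs may not have been kept apart.

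The bases before the start sites are shown for the 3 cathepsins that were higher in Trem2+ cells of every library (Ctsd, Ctsl and Ctsk) and for Ctsc, which unlike the other members was highest in the ND libraries. The windows are the 250 bases upstream of the transcript start in RefSeq (GRCm38.p6), 5′ to 3′ on the gene's strand, where 7 of the 9 members had an entry. Capitals mark CACGTG, the E-box core bound by factors of the TFEB, TFE3 and MITF family, or ACTTCCTC, the reverse strand of GAGGAAGT, a core bound by the myeloid factor PU.1. The Ctsd window is chr7:142387828-142388077 (minus strand, mostly inside the span of the gene given above), that of Ctsl chr13:64370521-64370770 (minus strand, wholly inside that span), that of Ctsk chr3:95498960-95499209 (plus strand) and that of Ctsc chr7:88277835-88278084 (plus strand).
Ctsd: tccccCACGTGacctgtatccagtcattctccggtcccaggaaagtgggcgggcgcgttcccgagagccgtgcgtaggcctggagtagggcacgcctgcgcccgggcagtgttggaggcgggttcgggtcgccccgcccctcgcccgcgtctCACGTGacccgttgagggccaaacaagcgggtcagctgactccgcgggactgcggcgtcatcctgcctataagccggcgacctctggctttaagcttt
Ctsl: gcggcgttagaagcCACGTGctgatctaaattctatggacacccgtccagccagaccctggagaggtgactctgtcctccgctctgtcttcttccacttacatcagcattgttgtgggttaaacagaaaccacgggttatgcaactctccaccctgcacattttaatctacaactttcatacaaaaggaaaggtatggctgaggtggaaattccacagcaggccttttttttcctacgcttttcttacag
Ctsk: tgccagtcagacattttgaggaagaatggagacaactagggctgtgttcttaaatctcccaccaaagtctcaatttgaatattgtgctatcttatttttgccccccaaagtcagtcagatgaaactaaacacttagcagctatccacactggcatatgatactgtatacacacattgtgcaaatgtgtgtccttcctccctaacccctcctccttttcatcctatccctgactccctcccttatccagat
Ctsc: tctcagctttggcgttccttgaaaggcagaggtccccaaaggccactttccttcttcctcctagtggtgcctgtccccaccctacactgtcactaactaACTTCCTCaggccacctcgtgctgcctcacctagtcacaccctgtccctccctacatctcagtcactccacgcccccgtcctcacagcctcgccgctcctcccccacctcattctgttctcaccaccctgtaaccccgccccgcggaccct

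On either strand, CACGTG was found in the windows of Ctsd (first base at -245 and at -98 from the start), Ctsl (-236) and 1 of the 2 windows of Ctsa (-12), and in 6.02% of all 32851 promoter windows of that length. The longer TCACGTGA, which contains CACGTG, was found in Ctsd (-99) and Ctsa (-13) and in 0.785% of windows. The full CLEAR element, a longer palindrome around the same core, was in none of the member windows and in 0.24% of all. GAGGAAGT was found in Ctsc alone among the members (-151, reverse strand) and in 2.44% of windows, and TGANTCA, the AP-1 site, in no member window and in 6.75% of all. The Ctsl window, and the Ctsa window with the match, lie wholly inside the annotated genes, and for Ctsl the bases before the gene were not searched. All matches describe letters in a short window. Ctsk, which like Ctsd and Ctsl was higher in Trem2+ cells, had none of the 5 motifs there.

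Together the 9 genes gave 7234 CPM (7179 to 7289), 5648 (5611 to 5686), 4757 (4702 to 4812) and 5013 (4961 to 5066). The sum was thus highest in WT HFD and lowest in WT ND. The median cell held 12, 10, 8 and 9 cathepsin UMIs among its 2000, and cells without any made up 0.305%, 0.287%, 0.792% and 0.718%.

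Ctsd, the aspartyl protease, stood at 860.2 CPM in WT HFD (841 to 879), 491 in CKO HFD, 429 in WT ND and 433 in CKO ND. WT HFD was set apart from the other 3, and the values of the ND libraries overlapped. At least 1 Ctsd UMI was seen in 58.5%, 47.0%, 45.02% and 47.6% of cells. Ctsa, the serine carboxypeptidase that also protects lysosomal sialidase and galactosidase, varied little, at 270, 246, 220.1 and 229 CPM. Its highest level was 1.23 times its lowest, the least among the 9 members.

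Ctsl was at 459 CPM (445 to 473), 222 (214 to 229), 139.9 (131 to 149.7) and 136 (127 to 145). Ctsk, best known as the collagenase of osteoclasts, was scarce, at 29.0 (25.6 to 32.7), 13.6 (11.8 to 15.6), 5.94 (4.16 to 8.22) and 5.31 (3.74 to 7.32). In both genes the HFD libraries were above the ND libraries, WT HFD was above CKO HFD, and the ND libraries overlapped. Trem2 followed the same order at 341, 205, 47.9 and 43.9 CPM, and Ctsk and Ctsl were the 2 members that shared it in full. All other members but Ctsc also had WT HFD first and CKO HFD second. In Ctsa, Ctsd, Ctss and Ctsz the ND libraries overlapped as they did in Trem2, so the full order does not set Ctsk and Ctsl apart from these.

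Ctsk UMIs came from few cells: 266 UMIs from 114 cells in WT HFD, 208 from 125 in CKO HFD, 36 from 29 in WT ND and 37 from 25 in CKO ND, where 11 of the 37 were in 1 cell. A Ctsk UMI was found in 2.49%, 1.63%, 0.957% and 0.718% of cells. Background was looked at in 48 cells with lymphoid markers and no UMI of the complement genes C1qa, C1qb and C1qc, pooled over libraries. Lymphoid-marker cells that held such a UMI were left out, so shares of background taken from the 48 cells may be too low. At the same 2000 UMIs, Ctsk and Trem2 gave no UMI in these 48 cells. By the floor of 3 counts this allows a share of up to 6.25%, and the 95% limit is 7.397%, so the Ctsk share of each library and the Trem2 share of CKO ND lie below what these few cells can exclude as background. In 115 cells with fibroblast markers Ctsk was at 209 CPM and Ctsl at 1022 CPM, so both genes were also present in cells with fibroblast markers.

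Ctsb, the endopeptidase that also acts as a dipeptidase, was at 2350, 1808, 1549 and 1664 CPM and was detected in 80.6% to 90.6% of cells. Ctss, the protease that trims invariant chain in antigen-presenting cells, was at 1152, 1069, 884 and 892 CPM, with 76.7% to 80.3% of cells holding a UMI. For both, WT HFD was highest followed by CKO HFD. In the lymphoid-marker cells Ctsb was found in 8.33% and Ctss in 16.7%, against 37.5% (23.95 to 52.65) for Ctsd. That interval covers the shares of Ctsd over all cells of CKO HFD and both ND libraries, so these 3 shares are not set apart from that of the lymphoid-marker cells. By level, lymphoid-marker cells held 281 CPM of Ctsd (185 to 409), below the 491, 429 and 433 CPM of these libraries. Whether the Ctsd UMIs of lymphoid-marker cells are background or their own was not tested.

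Among the exopeptidases, Ctsz was at 843 and 727 CPM in WT HFD and CKO HFD, and at 359 and 361 CPM in the ND libraries. Its 4 libraries thus formed an HFD pair and an ND pair, and the share of cells with a UMI was 74.97% and 71.8% against 48.0% and 48.2%. Ctsh was at 464, 389, 302 and 345 CPM, a range of 1.54 times. Ctsc was the 1 member lowest in CKO HFD and highest in CKO ND, at 807, 682, 868 and 949 CPM, with no overlap of intervals between neighbours in order of level.

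**Figure D1:**
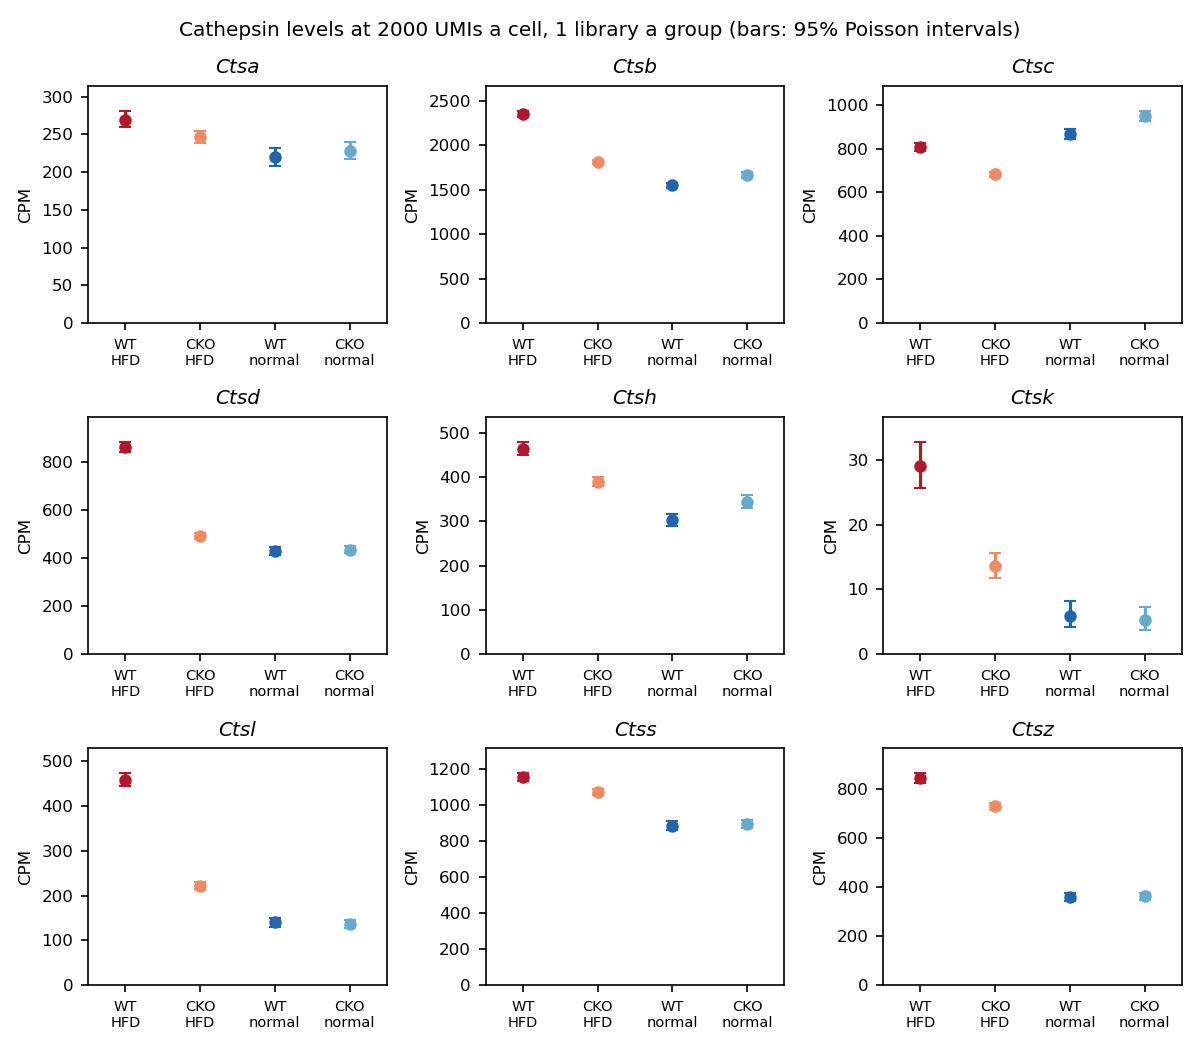
Levels of the 9 cathepsins (CPM at 2000 UMIs a cell, linear axis from 0) in the 4 libraries, with 95% Poisson intervals; each point is 1 library. All members but Ctsc are highest in WT HFD and next in CKO HFD, Ctsz forms an HFD pair and an ND pair, and Ctsc is highest in CKO ND.

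Cells were then split within each library by Trem2, so that both sides share preparation and depth. A cell was called Trem2+ with at least 1 Trem2 UMI among its 2000, which gave 1632, 1819, 227 and 250 cells (35.6%, 23.8%, 7.49% and 7.18%). Of these, 901, 1147, 179 and 207 had exactly 1 UMI, and a cell without one may still express the gene. The split bore out the label of lipid-associated cells less fully under the normal diet. Of 6 further markers (Cd9, Spp1, Gpnmb, Lpl, Fabp5 and Lgals3), 6, 6, 5 and 4 were at least 1.5 times higher in Trem2+ cells, and Cd9 was at 1.04 and 1.10 times in the ND libraries. There the complement genes C1qa, C1qb and C1qc were also 1.60 to 1.86 times higher in Trem2+ cells, against 0.795 to 1.248 times under HFD.

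Ctsd, Ctsk and Ctsl were at least 1.5 times higher in Trem2+ than in Trem2- cells of all 4 libraries, which is 3 of 9 members. Of 7101 genes measured in all 4, 0.789% met that rule. None of the members was at most 1/1.5 in all 4, a rule that 0.493% of genes met. Ctsh alone stayed between 0.8 times and the inverse of that in all 4 (called constant below), as did 24.3% of genes. The remaining 5 members, Ctsa, Ctsb, Ctsc, Ctss and Ctsz, met no rule in all 4 libraries. The median log2 ratio of the 9 members was 0.80, 0.50, 0.50 and 0.62, beside -0.10 and -0.09 under HFD, and about 0 in the ND libraries, over all genes measured.

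The Trem2+ over Trem2- ratio of Ctsl was 4.04 (3.79 to 4.32), 2.74 (2.56 to 2.93), 2.92 (2.44 to 3.46) and 2.27 (1.88 to 2.71). That of Ctsd was 2.44 (2.33 to 2.55), 2.10 (2.00 to 2.20), 2.44 (2.20 to 2.71) and 1.82 (1.63 to 2.03). Ctsk had the widest ratios and the fewest counts, 7.81 (5.72 to 10.85), 4.93 (3.70 to 6.59), 7.86 (3.72 to 16.06) and 13.65 (6.78 to 27.57). Leaving out the cell with 11 Ctsk UMIs moved the last value to 5.77 (2.17 to 13.94), and another random thinning moved the first to 4.95 and the last to 5.22. All 3 genes were thus above 1.5 in each library, and the size of the Ctsk ratio was poorly fixed.

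Fibroblast-marker cells lay almost wholly on the Trem2- side: the 6 fibroblast markers summed to 13.8 CPM in Trem2+ and 628 CPM in Trem2- cells of WT HFD. Of the 266 Ctsk UMIs in WT HFD, 21 were in fibroblast-marker cells, and of the 4207 Ctsl UMIs 112 were. Without all cells that carried 2 or more markers of another cell type, the Ctsk ratio was 13.04 in WT HFD and 6.68 in CKO HFD, and the same 3 members were called.

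Ctsb, at 1.74, 1.41, 2.22 and 1.69 times, missed the rule in CKO HFD, and Ctss, at 1.75, 1.64, 1.31 and 1.53 times, missed it in WT ND. Both passed in all 4 libraries when Trem2+ cells needed at least 2 UMIs, which made 5 members higher. Ctsz was at 1.51, 1.26, 1.14 and 1.23 times and Ctsa at 1.23, 1.09, 1.41 and 1.30 times. Ctsh was level in every library, at 0.995 (0.934 to 1.06), 0.953 (0.897 to 1.01), 1.06 (0.89 to 1.26) and 1.03 (0.878 to 1.2) times. With the stricter split it was at 0.744 in CKO ND, where 43 cells had 2 or more Trem2 UMIs, and no member was then constant in all 4.

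Ctsc took opposite signs by diet. It was lower in Trem2+ cells under HFD, at 0.746 (0.709 to 0.784) in WT and 0.823 (0.784 to 0.863) in CKO, and higher under the normal diet, at 1.16 (1.05 to 1.28) and 1.26 (1.15 to 1.37). The difference between diets was not tested, and neither direction reached 1.5 times at this split. With at least 2 Trem2 UMIs, Ctsc was at 0.585 in WT HFD, 0.626 in CKO HFD and 0.656 in WT ND (48 cells), all past 1/1.5. WT ND thus turned, while CKO ND stayed above 1. In cells with a C1q UMI, Ctsc in WT ND turned to 0.898. The resident macrophage markers moved beside it. Of Folr2, Cd163, Timd4, Mrc1, F13a1 and Cbr2, 5 and 3 were at most 1/1.5 in Trem2+ cells of the HFD libraries, and Mrc1 was at 0.613, 0.679, 1.34 and 1.201 times. Their part in the Ctsc ratio was not tested.

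**Figure D2:**
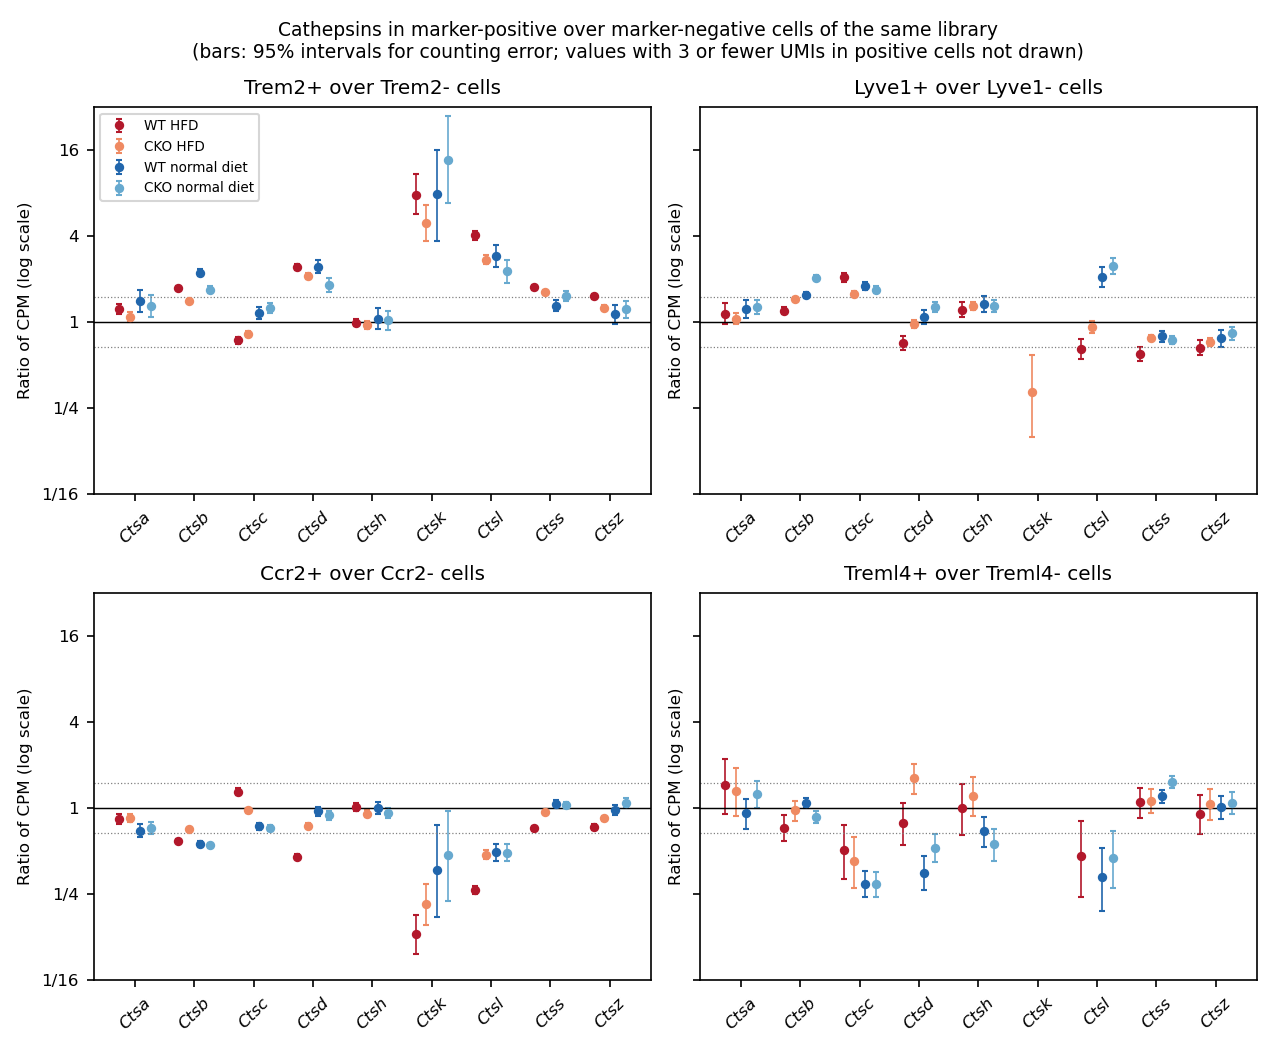
Ratio of CPM in marker-positive over marker-negative cells of the same library (log axis) for 9 cathepsins and 4 marker genes, coloured by library, with 95% intervals for counting error; dotted lines mark 1.5 and 1/1.5. Ctsd, Ctsk and Ctsl lie above the upper line in Trem2+ cells of all 4 libraries, Ctsh lies at 1, and Ctsc lies above it in Lyve1+ cells.

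Within the HFD libraries the number of Trem2 UMIs in a cell allowed a graded view. In WT HFD, Ctsl was at 220.3 CPM in the 2951 cells without a Trem2 UMI, 494 in the 901 cells with 1, 711 in the 369 with 2 and 2059 (1956 to 2167) in the 362 with 3 or more. Ctsd went from 569 over 1021 and 1381 to 2308 CPM, and Ctsk from 8.47 over 23.9 and 35.2 to 203 CPM. Each step was larger than the intervals for Ctsl and Ctsd, while the middle steps of Ctsk overlapped.

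In the same cells Ctsb went from 1858 over 2735 and 3363 to 4366 CPM, Ctss from 909 over 1170 and 1545 to 2689 CPM, and Ctsz from 712 over 919 and 1004 to 1554 CPM. Ctsb, Ctss and Ctsz, which did not meet the rule in all 4 libraries, therefore still had their highest level in the cells richest in Trem2. Ctsh stayed at 465, 478, 404 and 483 CPM. Ctsc went down, from 887 over 777 and 638 to 398 CPM (353 to 446).

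CKO HFD had the same directions: from 0 to 3 or more Trem2 UMIs, Ctsl went from 157 to 930.2 CPM, Ctsd from 389 to 1490 CPM, Ctsb from 1647 to 3276 CPM, and Ctsc from 712 to 354 CPM. Ctsa went from 241 to 307 CPM, again with no overlap of intervals. At 3 or more Trem2 UMIs, Ctsl, Ctsd, Ctsb, Ctsz, Ctsk and Ctss were lower in CKO HFD than in WT HFD with no overlap of intervals, while Ctsa, Ctsc and Ctsh overlapped. The Ctss intervals lay close together, at 2315 to 2563 CPM in CKO HFD and 2571 to 2811 in WT HFD. Over all cells the direction of Ctss and of Ctsz between these libraries turned with the scaling given below, which was not applied here. The ND libraries had 11 cells each at 3 or more Trem2 UMIs. There Ctsb was at 5500 and 5182 CPM and Ctsd at 2136 and 1864 CPM, with wide intervals. Ctsh was at 394 and 435 CPM at the ends of this scale in CKO HFD, with overlapping intervals.

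**Figure D3:**
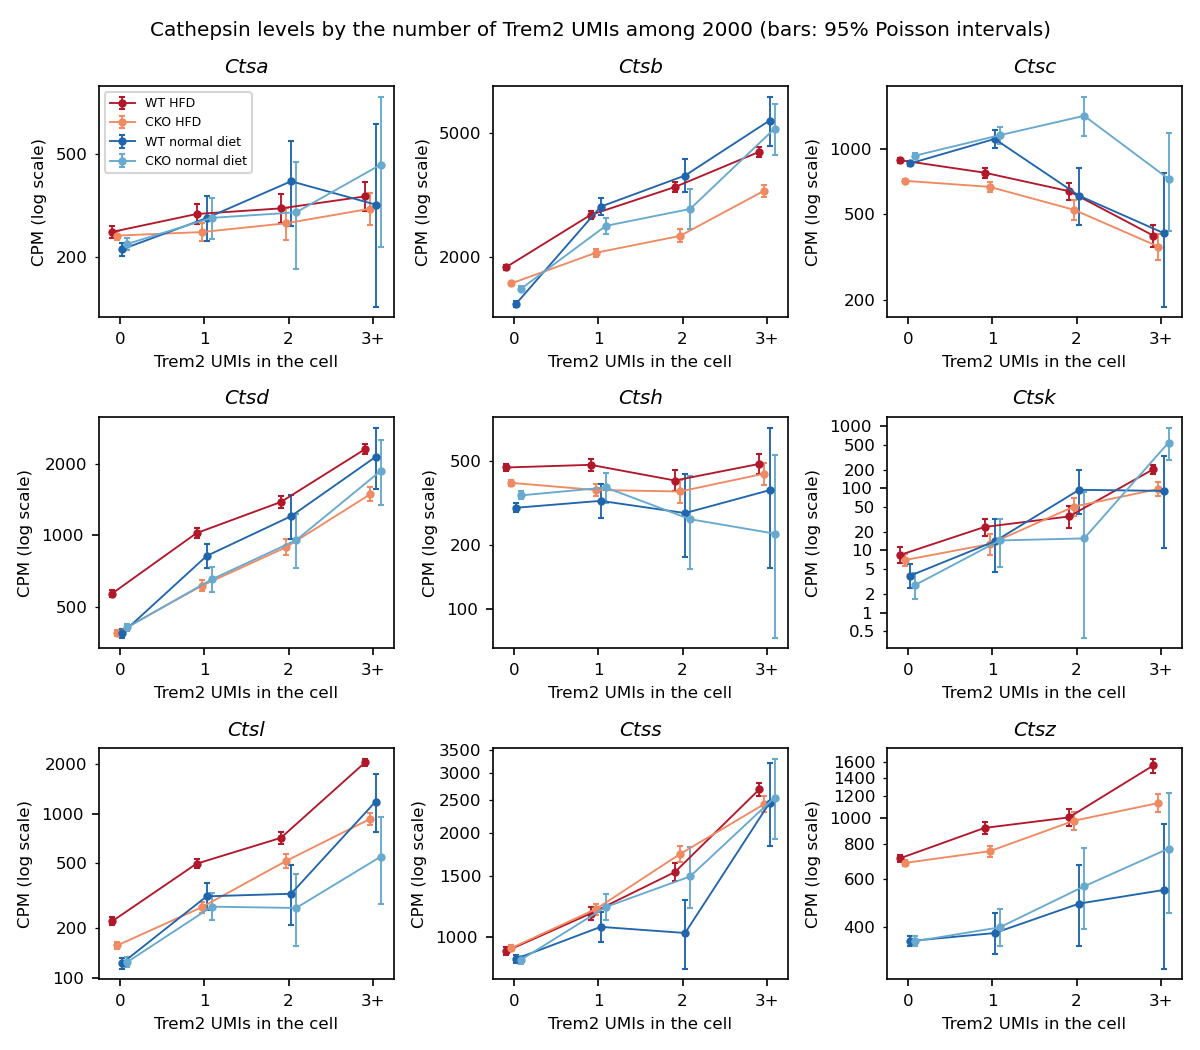
Level of each cathepsin (CPM, log axis) in cells with 0, 1, 2 or 3 and more Trem2 UMIs among 2000, for the 4 libraries, with 95% Poisson intervals. In WT HFD Ctsl goes from 220.3 to 2059 CPM and Ctsc from 887 to 398 CPM, while Ctsh stays between 404 and 483 CPM.

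Lyve1 marks perivascular resident macrophages, and 250, 1128, 418 and 720 cells were Lyve1+. All 6 resident markers were at least 1.5 times higher in these cells in each library, and all 6 lipid-associated markers at most 1/1.5. Ctsc was the 1 member at least 1.5 times higher in all 4 (4.92% of genes were), at 2.07 (1.92 to 2.22), 1.58 (1.51 to 1.65), 1.80 (1.69 to 1.92) and 1.69 (1.60 to 1.78) times. The call was lost when CPM left out mitochondrial and ribosomal protein genes and Gm42418, when cells needed a C1q UMI, and when cells positive for more than 1 of the 4 marker genes were left out. Ctsk was the 1 member lower in all 4 (2.69% of genes were). It had no UMI in Lyve1+ cells of WT HFD and CKO ND, where a floor of 3 UMIs makes it at least 5.12-fold and 3.21-fold lower (the upper limits of the 95% intervals of the ratio are 0.242 and 0.402). It was at 0.323 (0.159 to 0.591) in CKO HFD and, from 1 of 36 UMIs, at 0.179 (0.0044 to 1.06) in WT ND, an interval that includes 1. The call was lost at 1000 UMIs a cell, without the top doublet scores, in cells positive for 1 marker only and at full depth, and Ctsk was under 10 CPM on both sides in the ND libraries, a level that the share over all genes does not include.

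No member was constant in all 4 libraries by Lyve1, against 14.7% of genes. Ctss, at 0.601, 0.775, 0.796 and 0.7501 times, and Ctsz, at 0.664, 0.726, 0.775 and 0.835 times, were on the low side in each library. Ctsh, at 1.23, 1.30, 1.34 and 1.30 times, and Ctsb, at 1.21, 1.45, 1.55 and 2.04 times, were on the high side. The ratios of Ctsl lay apart by diet, a difference that was not tested: Lyve1+ cells had 0.654 (0.553 to 0.769) and 0.928 (0.84 to 1.02) times the level of Lyve1- cells under HFD, and 2.08 (1.77 to 2.44) and 2.48 (2.17 to 2.83) times under the normal diet. Ctsl was thus higher in both Trem2+ and Lyve1+ cells of the ND libraries, where 34 of 227 and 65 of 250 Trem2+ cells were also Lyve1+.

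Ccr2, the chemokine receptor of monocytes and of macrophages derived from them, was detected in 2999, 4468, 1830 and 1967 cells, which is 56.5% to 65.4% of each library. Of the 48 lymphoid-marker cells 41.67% (27.61 to 56.79) held a Ccr2 UMI, an interval that covers the share of CKO ND, and lymphoid cells can express Ccr2 themselves. Of 5 classical monocyte markers, 3, 5, 3 and 3 were at least 1.5 times higher there. Ctsk and Ctsl were lower in Ccr2+ cells of all 4 libraries, as were 1.8% of genes. The Ctsl ratio was 0.269 (0.252 to 0.287), 0.474 (0.442 to 0.508), 0.491 (0.427 to 0.564) and 0.489 (0.428 to 0.558), and that of Ctsk ran from 0.131 to 0.469, again with fewer than 10 CPM on both sides in the ND libraries. In cells positive for 1 marker only, Ctsk was no longer called. The 6 fibroblast markers summed to 24.5 CPM in Ccr2+ and 1138 CPM in Ccr2- cells of WT HFD, to 16.7 and 427 CPM in CKO HFD, to 4.10 and 55.4 CPM in WT ND and to 4.32 and 54.5 CPM in CKO ND. Without cells that carried markers of other cell types, Ctsk and Ctsl were still both lower in all 4 libraries. Ctsb was below 1 in each library, at 0.589, 0.715, 0.562 and 0.552 times, and missed the rule in CKO HFD. Ctsh was again constant, at 0.919 to 1.01 times, as were 33.4% of genes, and no member was higher in all 4 (0.576% of genes were). Ctsc went from 1.31 times in WT HFD to 0.731 times in CKO ND.

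Treml4 marks non-classical monocytes and was found in 28 and 43 cells under HFD and in 177 and 168 under the normal diet. Of 6 further markers of such monocytes, 6, 5, 6 and 6 were at least 1.5 times higher in these cells. Of the Treml4+ cells, 20, 41, 97 and 108 had exactly 1 UMI. Under HFD, 12 and 13 Treml4+ cells were also Trem2+. Of the lymphoid-marker cells 2.08% (0.0527 to 11.07) held a Treml4 UMI, an interval that covers the share of each library. Ctsc and Ctsl were lower in Treml4+ cells of all 4 libraries, as were 3.57% of 5553 genes. Ctsc was at 0.508 (0.322 to 0.762), 0.425 (0.275 to 0.627), 0.297 (0.239 to 0.363) and 0.294 (0.238 to 0.359) times, and Ctsl at 0.465, 0.157, 0.33 and 0.448 times. The Ctsl ratios of the HFD libraries rest on few UMIs in those 28 and 43 cells, so their size is poorly fixed. The lower calls of Ctsc and of Ctsl were both lost at full depth and in cells with a C1q UMI, that of Ctsc also with another random thinning or a mitochondrial limit of 5%, and that of Ctsl with at least 2 Treml4 UMIs. Ctsz was constant at 0.911, 1.07, 1.02 and 1.09 times, as were 2.95% of genes, and none was higher in all 4 (5.15% of genes were). It was not constant in all 4 with another random thinning, without the top doublet scores, in cells positive for 1 marker only or in cells with a C1q UMI. Ctss was at 1.10, 1.13, 1.22 and 1.54 times, so that it was past 1.5 times in CKO ND alone. Ctsk had 0 to 2 UMIs in Treml4+ cells of each library and could not be placed.

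Between diets in WT, 6 of 9 members were at least 1.5 times higher under HFD (13.7% of genes were higher and 29.8% lower by that size). Ctsk was at 4.88 times (3.44 to 7.13), Ctsl at 3.28 (3.05 to 3.53), Ctsz at 2.35 (2.24 to 2.46), Ctsd at 2.01 (1.92 to 2.10), Ctsh at 1.54 (1.45 to 1.62) and Ctsb at 1.52 (1.48 to 1.55). With another random thinning Ctsb was at 1.496 times and thus missed the rule. Ctss was at 1.30 times, Ctsa at 1.23 times and Ctsc at 0.929 times. The median log2 ratio of the 9 members was 0.62 beside -0.24 over all genes, and scaling by trimmed means (TMM) raised every ratio by 0.24 (log2), which put Ctsc at 1.10 times and Ctss at 1.54 times.

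In CKO, 3 of 9 members were at least 1.5 times higher under HFD (13% of genes were higher and 46% lower): Ctsk at 2.56 times (1.80 to 3.73), Ctsz at 2.02 (1.93 to 2.11) and Ctsl at 1.63 (1.52 to 1.76). Ctsa, Ctsb, Ctsd, Ctsh and Ctss were at 1.08 to 1.198 times, and Ctsc was at 0.719 times (0.697 to 0.742). The median log2 ratio was 0.18 over the members and -0.50 over all genes. TMM raised every ratio by 0.56 (log2), which brought 8 members past 1.5 times and Ctsc to 1.06 times. The direction of Ctsc between diets thus turned with the scaling in both genotypes. Trem2 itself was at 7.12 times in WT and 4.67 times in CKO, and more cells were Trem2+ under HFD.

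The diet ratios were therefore taken again within Trem2+ and within Trem2- cells, where TMM scaling was not applied. Ctsz was higher under HFD on both sides, at 2.66 (2.30 to 3.10) and 2.00 (1.90 to 2.12) times in WT and 1.98 (1.73 to 2.28) and 1.93 (1.84 to 2.02) times in CKO. In WT its ratio was larger in Trem2+ than in Trem2- cells with no overlap of intervals, while in CKO the intervals overlapped. Ctsh in WT was at 1.45 and 1.54 times, as it was over all cells. Ctsb in WT, at 1.52 times over all cells, was at 1.03 (0.971 to 1.08) in Trem2+ and 1.31 (1.27 to 1.35) in Trem2- cells. Ctsd went from 2.01 to 1.47 on both sides, and Ctsl from 3.28 to 2.50 and 1.80. Trem2+ cells were not alike between diets, as the ratios of Cd9 and the C1q genes above show.

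In CKO, Ctsl was at 1.52 times within Trem2+ and 1.26 within Trem2- cells. Ctsk was at 0.911 (0.56 to 1.56) within Trem2+ cells, a value that rests on the ND library with 11 UMIs in 1 cell. Ctsc was lower under HFD within Trem2+ cells in both genotypes, at 0.664 (0.6 to 0.737) times in WT and 0.5 (0.456 to 0.549) times in CKO. Within Trem2- cells it was at 1.03 and 0.765 times.

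**Figure D4:**
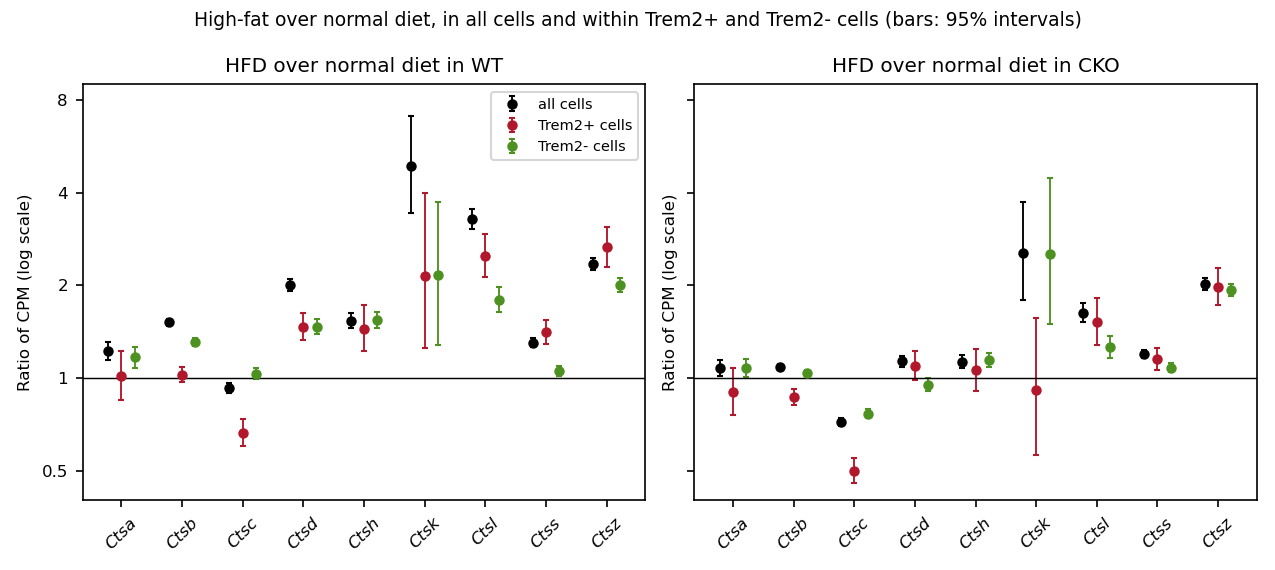
High-fat over normal diet ratio of CPM (log axis) for each cathepsin in WT (left) and CKO (right), over all cells and within Trem2+ and Trem2- cells, with 95% intervals for counting error. The 3 points of Ctsz lie between 1.93 and 2.66 in both panels, and the Trem2+ point of Ctsc lies at 0.664 and 0.5.

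Between genotypes under HFD, Ctsk, Ctsl and Ctsd were lower in the library labelled CKO, by at least 1.5 times, which is 3 of 9 members (21.1% of genes were lower and 5.84% higher by that size). Ctsk was at 0.468 times (0.389 to 0.563), Ctsl at 0.483 (0.461 to 0.505) and Ctsd at 0.571 (0.553 to 0.589), beside Trem2 at 0.602 (0.572 to 0.632) and Lyve1 at 2.42 (2.19 to 2.67). The 3 members are the same 3 that were higher in Trem2+ cells. Ctsb was at 0.769 times (0.756 to 0.783). The median log2 ratio was -0.25 over the members and -0.22 over all genes, and TMM raised every ratio by 0.24 (log2), which put Ctsd at 0.675, just short of the rule, Ctsl at 0.571 and Ctsk at 0.554.

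The other 5 members were at 0.839 to 0.928 times, and TMM put them between 0.992 and 1.10, so that their direction turns or ends with the scaling: Ctsa and Ctss went above 1, Ctsz to 1.02, and Ctsc and Ctsh to 1.00 and 0.992. Within Trem2+ cells, Ctsl was at 0.482 times (0.453 to 0.513), Ctsk at 0.523 (0.417 to 0.655) and Ctsd at 0.589 (0.562 to 0.617). Within Trem2- cells the same ratios were 0.712 (0.663 to 0.765), 0.829 (0.576 to 1.204) and 0.685 (0.655 to 0.716). The lower level of these 3 in the library labelled CKO was thus also present among Trem2+ cells alone. Among Trem2- cells the difference was smaller, and the interval of Ctsk there included 1. TMM scaling was not applied to the ratios within Trem2+ and Trem2- cells. Beside this, WT HFD had the deeper cells (median 14492 UMIs against 3923), and 400 of its cells were over the mitochondrial limit against 7 in CKO HFD. As many as 3 members were also past the rule with a mitochondrial limit of 5% and with all UMIs pooled without thinning.

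Under the normal diet none of the 8 members measurable at 10 CPM was past 1.5 times between genotypes (1.3% of genes were higher and 1.08% lower), and the median log2 ratio was 0.04 over the members and 0.03 over all genes. Their ratios ran from 0.97 for Ctsl (0.883 to 1.06) to 1.14 for Ctsh (1.07 to 1.21). Ctsb, Ctsc and Ctsh lay above 1 by more than their counting intervals, and the others did not.

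The other cathepsin genes contributed little. Of 14 on the list, 2 or 3 reached 10 CPM in each comparison between libraries, among them Ctsf at 12.1, 16, 13.04 and 12.9 CPM and Ctso at 19.2, 18.9, 19.5 and 21.97 CPM. Ctsf was higher in Lyve1+ cells of all 4 libraries, at 3.35, 1.79, 2.26 and 2.44 times, and lower in Ccr2+ cells.

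Of 8 inhibitor genes 2 were measurable. Cst3, encoding cystatin C, a secreted inhibitor of cysteine cathepsins, was at 2118, 3977, 2062 and 2135 CPM, 1.88 times (1.85 to 1.91) higher in CKO HFD than in WT HFD, opposite to Ctsk and Ctsl. Cstb, encoding the cytosolic inhibitor cystatin B, was at 509, 755, 344 and 258 CPM. It was higher in Trem2+ cells of all 4 libraries, at 2.02, 1.81, 2.54 and 1.87 times, while Cst3 was constant there.

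Among 6 genes that deliver hydrolases to the lysosome, Igf2r, the large mannose 6-phosphate receptor, was higher in Trem2+ cells of all 4 libraries (2.50, 2.17, 3.20 and 1.87 times), and M6pr, the small one, was constant. M6pr was at 132, 111, 163 and 158 CPM. Nagpa, which uncovers the mannose 6-phosphate tag, was at 26.3, 25.8, 17.99 and 21.1 CPM and past 1.5 times in Trem2+ cells of CKO ND alone, at 1.58 times. Of the 4 transcription factors that act on lysosome genes, none was higher in Trem2+ cells of all 4 libraries. Mitf was at 209, 73.9, 199.8 and 209 CPM, so that it was at 0.354 times (0.329 to 0.382) in CKO HFD over WT HFD, and Tfe3 was at 48.5, 45.5, 90.3 and 88.0 CPM.

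Among 32 other lysosomal hydrolases and cofactors, 30 were measured by Trem2 in all 4 libraries and 1 was higher in each (0.789% of all genes were), Acp5, at 2.77, 1.90, 2.47 and 1.92 times. Constant were 4 of them, Gusb, Neu1, Npc2 and Psap, beside 24.3% of all genes. Psap, the saposin precursor, was at 2465, 2198, 2966 and 2931 CPM. Lgmn, the asparaginyl protease that activates several cathepsins, was at 839, 703, 931 and 1015 CPM, the same order of libraries as Ctsc. Of 8 lysosomal membrane genes, Cd63 (2.54, 1.85, 2.99 and 2.19 times) and Cd68 (1.99, 1.61, 2.30 and 1.67 times) were higher in Trem2+ cells of all 4 libraries, while Lamp2, Scarb2 and Laptm5 were constant. Laptm5, a membrane protein of immune cells, was at 841, 742, 1234 and 1240 CPM and Lamp1 at 701, 688, 736 and 818 CPM. Between diets in WT, 8 of 31 hydrolases were past 1.5 times higher and 5 lower under HFD (13.7% and 29.8% of all genes), with a median log2 ratio of 0.01 beside 0.62 for the 9 cathepsins. In CKO, 1 was higher and 6 were lower, beside 13% and 46% of all genes (median -0.16 beside 0.18), before the TMM shift given above. Between genotypes under HFD, none of 30 was higher and 4 were lower, beside 5.84% and 21.1% of all genes.

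Likeness was described by Pearson's r of log2(CPM + 10) over 16 profiles, the Trem2+, Lyve1+, Ccr2+ and Treml4+ cells of each library at the same depth. The profiles share cells and libraries and were split by Trem2 itself, so they are not independent, and r is a description. Among 5258 genes, Trem2 was the third likest gene to Ctsd (r 0.91), after Smpd3 (0.923) and Slc37a2 (0.911). Ctsk was likest to Spp1 (0.89), Atp6v0d2 (0.858) and F7 (0.836), and Ctsl to Bcar3 (0.902), Dtnbp1 (0.887) and Hist1h2bc (0.883). With Trem2 itself, r was 0.731 for Ctsk, 0.707 for Ctsz and 0.697 for Ctsl, and 0.192 for Ctsc. Ctsc was likest to Dab2 (0.979), Mrc1 (0.971) and Psd3 (0.969).

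The likest genes of Ctsz were Rnh1 (0.98), Metrnl (0.965) and Grpel1 (0.963), those of Ctss Nr1h3 (0.875), Leprotl1 (0.859) and Acp5 (0.855), and those of Ctsh Clta (0.929), Lap3 (0.928) and Gpr146 (0.925). Ctsb was likest to Mfsd11 (0.835), Apoe (0.822) and Mpp1 (0.822), and Ctsa to Prorsd1 (0.815), Fcgr1 (0.777) and Bet1l (0.777). Within the family the lowest value was that of Ctsc with Ctss (-0.61) and the highest that of Ctsb with Ctsl (0.762). Values of r between members thus ran from negative to positive over these cells.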

How the data were processed

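Macrophages sorted from perigonadal white fat were profiled in 4 libraries by 3′ single-cell RNA sequencing. Cell Ranger 7.0.0 made unnormalised UMI counts for every gene in every called cell, per the file headers, and 1 such matrix was deposited for each library. The build GRCm38 is named in the submitters' processing notes, and the use of introns and strand in counting is not stated. Of the 32285 gene identifiers, 99.61% were found in GENCODE M21, from which positions were taken.

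Cells were kept with at least 500 UMIs, 300 genes and at most 10% mitochondrial UMIs. Cells with at least 2000 UMIs were thinned to 2000 without replacement (fixed seed), UMIs were summed and scaled to 1000000 (CPM). The total deposited UMIs were 74879066, 42566954, 21829741 and 24543868 in WT HFD, CKO HFD, WT ND and CKO ND. Intervals (95%: Poisson, conditional binomial, Clopper-Pearson) cover counting error only, and no test was run, since cells are not replicates. A member was called past 1.5 times, or constant between 0.8 times and its inverse, and calls by marker gene needed all 4 libraries. The shares over all genes used genes of at least 10 CPM on 1 side. Groups came from the labels.

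Doublets were not removed: the automatic threshold of Scrublet (scanpy 1.11.5) marked 0 cells in each library, and removing the top 5% of scores was an alternative. Cells with 2 or more markers of another type (fibroblast, lymphoid, dendritic, neutrophil, mast cell, endothelial) were kept, and left out as an alternative. The steps were tested on simulated counts. Python 3.11.15, numpy 2.4.6, scipy 1.17.1, pandas 2.3.3 and matplotlib 3.10.9 were used.

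All 9 members are named, with the 2 genes of highest mean CPM from each of 6 lists (other cathepsins, inhibitors, delivery, regulators, other hydrolases, lysosomal membrane), list genes that a count of 5 or fewer singles out, and the 3 likest genes of each member among those with at least 50 CPM in a profile (pseudocount 10). Members and lists were chosen with earlier results of these data known.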

Additional observations from a re-analysis of the deposited data

Results flagged for a closer look

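In 3 genes the ratio between genotypes lay on opposite sides of 1 under the 2 diets with both counting intervals clear of 1, and the difference was not tested, since each group has 1 library. For Ctsb the level in CKO was 0.769 times that in WT under HFD (0.756 to 0.783) and 1.08 times under the normal diet (1.05 to 1.10). For Ctsc these ratios were 0.846 (0.821 to 0.872) and 1.09 (1.05 to 1.13), and for Ctsh 0.839 (0.806 to 0.873) and 1.14 (1.07 to 1.21). TMM scaling moved the values under HFD to 0.91, 1.00 and 0.992, so that Ctsb alone stayed lower by more than its counting interval.

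Ctsc was lower in Trem2+ than in Trem2- cells of both HFD libraries (0.746 in WT, 0.823 in CKO) and higher in those of both normal-diet libraries (1.16 in WT, 1.26 in CKO). This difference between diets was not tested either. In WT under the normal diet the direction turned with at least 2 Trem2 UMIs (0.656). It also turned in cells positive for 1 marker gene only (0.993) and in cells with a C1q UMI (0.898). The other 3 libraries kept theirs in these settings. With at least 2 Trem2 UMIs the HFD libraries were at 0.585 in WT and 0.626 in CKO, both past 1/1.5.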

How the results depend on the processing

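No paired analysis was possible because each group has 1 library, so no replicate could be left out either. Counts of members past a rule were recomputed under 13 settings, and 124 of 156 stayed within 1.5 times of the value reported, while 32 moved. Of the members' ratios, 214 of 288 in the 4 comparisons and 235 of 360 by Trem2 moved by less than their counting interval. None that was past 1.5 times in the main setting was past it in the opposite direction elsewhere. The Ctsc ratio by Trem2 in WT ND, at 1.16 and so not called, was at 0.656 and past 1/1.5 with at least 2 marker UMIs. The cause of the moves was not tested, except that fewer cells or UMIs enter some settings by construction.

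Ctsd, Ctsk and Ctsl were higher in Trem2+ cells under each of the settings tried. With TMM scaling, members past 1.5 times between diets in CKO went from 3 to 8. Members higher in Trem2+ cells went from 3 to 5 with at least 2 marker UMIs and in cells positive for 1 marker only (adding Ctsb and Ctss). Members constant by Trem2 went from 1 to 0 with at least 2 marker UMIs and to 2 at full depth.

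By Lyve1, members higher went from 1 to 0 when CPM left out mitochondrial and ribosomal protein genes and Gm42418, in cells positive for 1 marker only and in cells with a C1q UMI. Members lower went from 1 to 0 at 1000 UMIs, without the top 5% of doublet scores, in cells positive for 1 marker only and at full depth. Members constant went from 0 to 1 with a mitochondrial limit of 5%, with CPM without those genes, with at least 2 marker UMIs, in cells positive for 1 marker only, in cells with a C1q UMI and at full depth.

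By Ccr2, members lower went from 2 to 1 in cells positive for 1 marker only, and members constant from 1 to 3 there and at 1000 UMIs. By Treml4, members lower went from 2 to 1 with another random seed, a mitochondrial limit of 5% or at least 2 marker UMIs, and to 0 at full depth and in cells with a C1q UMI. Members constant went from 1 to 2 at 1000 UMIs, a limit of 5% or without top doublet scores, to 3 at full depth, and to 0 in cells positive for 1 marker only and with a C1q UMI. Depth limits Ctsk above all, with 36 and 37 UMIs in the normal-diet libraries, and all ratios in the 28 and 43 Treml4+ cells under HFD.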
